A study of Mus musculus with 8 samples.

Results

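Interleukin receptors and immune checkpoint genes were examined in fluorescent cells sorted from the mouse central amygdala. The set holds 10 of the 21375 genes in the expression tables, taken by symbol: 7 receptor chains (Il10ra, Il10rb, Il4ra, Il13ra1, Il21r, Il6ra and Ifngr1) and 3 checkpoint or costimulatory genes (Havcr2, Vsir and Cd86). The study compared sorted cells of a PKCd population and an SST population. PKCd libraries came from male PKC delta-type::Cre mice and SST libraries from male SST::Cre mice, each crossed to a Rosa reporter with a loxP-STOP-loxP cassette before td-Tomato. Cre under the Prkcd or Sst promoter marks every cell that has ever expressed it, so the sort follows the reporter and not the present RNA. Each library held about 1000 td-Tomato positive cells of 1 mouse, with 4 libraries a population. PKCd mice were 18 weeks old (replicates 3 and 4) or 9 weeks old (replicates 1 and 2), and SST mice were 20 weeks old (replicates 3 and 4) or 8 weeks old (replicates 1 and 2). The 10 genes were chosen with the difference between the populations in these tables known. Their values in that comparison are therefore a description and carry no test.

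Interleukin receptors are built from chains. A ligand-binding chain such as Il10ra, Il4ra, Il6ra or Il21r pairs with a chain that several receptors share, and the pair activates JAK kinases and STAT transcription factors. In the brain such receptors are best known from microglia, where interleukin 10 and interleukin 4 restrain inflammatory activation and interferon gamma promotes it. Checkpoint genes encode surface proteins that dampen immune responses, and costimulatory genes such as Cd86 encode proteins that help to start them.

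Libraries held 964361 to 2522749 estimated reads in the 18 to 20 week mice and 10316149 to 18242496 in the 8 to 9 week mice, so age class and depth cannot be told apart. Microglial marker transcripts were abundant in the PKCd libraries. All 12 markers were higher in each PKCd library than in any SST library, and their summed level was 30480 to 50053 TPM in the PKCd and 469.4 to 5835 TPM in the SST libraries. TPM, the unit of level, corrects for transcript length and gives each library an equal total. Neuron markers, in contrast, summed to 103 to 500.4 TPM in the PKCd and 116.5 to 482.4 TPM in the SST libraries. Of these, Slc32a1, the vesicular GABA transporter, was listed at 0 in PKCd replicates 3 and 4 and SST replicates 2 and 4. The other neuron markers (Snap25, Syt1, Rbfox3, Stmn2, Gad1 and Gad2) had reads in every library, with as few as 1 for Rbfox3, Stmn2 and Gad2. Oligodendrocyte markers summed to 11666 to 29394 TPM in the PKCd and 9896 to 59186 TPM in the SST libraries. Astrocyte markers summed to 200 to 1619 TPM in the PKCd and 885.4 to 2764 TPM in the SST libraries. Border macrophage markers summed to 15.9 to 436.1 TPM in the PKCd and 0.111 to 3.61 TPM in the SST libraries. Lymphocyte markers summed to 1.74 to 52.9 TPM in the PKCd and 0.081 to 3.85 TPM in the SST libraries: 5 of 10 had no read in any library, and Cd79b, of the B cell receptor, had 24.9, 46.5, 31.2 and 0 TPM in PKCd libraries and 0 in SST libraries. 1 library stood apart in Sst: PKCd replicate 2 held 222.7 TPM of it. The other PKCd libraries held 0.209 to 13.7 TPM of Sst and SST libraries 116.3 to 296.2 TPM. Prkcd in PKCd replicate 2, at 157 TPM, lay within the PKCd range of 106 to 226 TPM, against 0 to 30.2 TPM in SST libraries. Values without PKCd replicate 2 are given below. In sorted bulk samples, fewer cells of a type and less RNA per cell cannot be told apart.

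The 10 genes together summed to 779.1 to 1498 TPM in the PKCd and 71.4 to 529.6 TPM in the SST libraries. In the TPM values 6 of the 10 (Havcr2, Vsir, Il4ra, Il10ra, Il6ra and Il21r) had every PKCd library above every SST library, while Ifngr1, Cd86, Il10rb and Il13ra1 overlapped. Of all 11370 genes tested, 3.87% lay higher in this way. Nothing is read from that share, because the genes were chosen on this contrast. Without PKCd replicate 2 the count was 8, with Ifngr1 and Cd86 added. Leaving out a library can only add to such a count. The share of all genes was not computed without that library, so nothing is read from the rise. The median fitted log2 fold change of the 10, PKCd minus SST, was 4.67, and it was 4.87 without PKCd replicate 2; over all genes tested the median was -0.08.

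**Figure D1:**
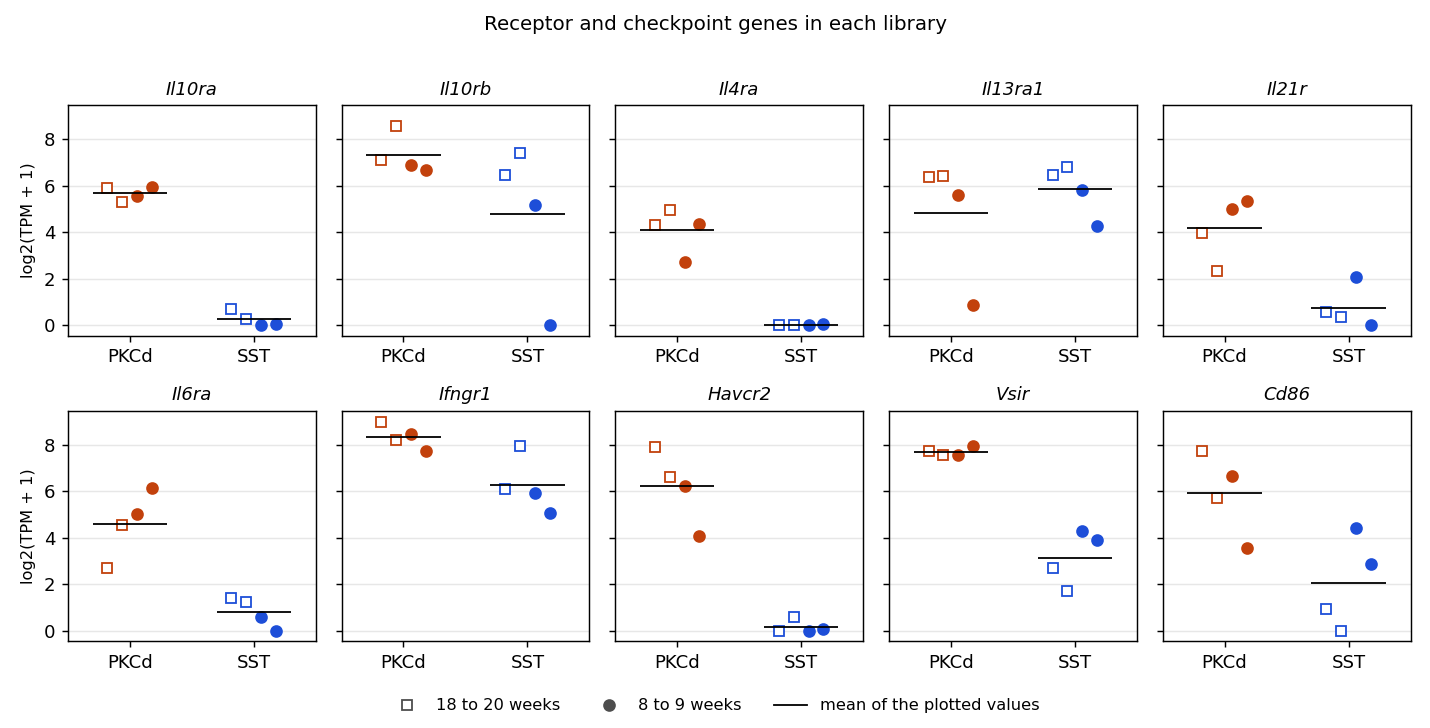
Each panel shows 1 gene as log2(TPM + 1) in the 4 PKCd libraries (left, orange) and the 4 SST libraries (right, blue), with open squares for 18 to 20 week mice, circles for 8 to 9 week mice and a line at the mean. Il10ra, Il4ra and Havcr2 lie near 0 in SST libraries, whereas Ifngr1, Il10rb and Il13ra1 are present in both populations.

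The interleukin 10 receptor showed a different pattern for each of its chains. Il10ra (chromosome 9, 45253837 to 45269149, GRCm38), the ligand-binding chain, had 45.6, 60.7, 58.8 and 38.9 TPM in PKCd replicates 1 to 4, against 0, 0.033, 0.642 and 0.19 TPM in SST replicates 1 to 4. Those SST values rest on 4 reads in all (0, 1, 2 and 1 by library), while the PKCd libraries held 1799, 1485, 112 and 117 reads. The PKCd libraries lay in a narrow band, with a coefficient of variation of 20.6%, and SST libraries were at or next to no reads. The pooled read rate of PKCd libraries was 971.8 times that of SST libraries (95% exact interval 379.2 to 3569). That interval covers counting error only: amplified reads are not independent molecules, and the spread between mice is left out. It describes the reads and is no test of the populations. The pooled rate gives most weight to the deepest libraries, and the ratio of mean CPM (counts relative to depth), which weights libraries equally, was 249.3. Il10rb (chromosome 16, 91406157 to 91425834) encodes the chain that the receptor shares with those of interleukin 22 and other ligands of the same family. It had 118.4, 102.4, 138.3 and 380.5 TPM in the PKCd and 35.5, 0, 87.7 and 167.8 TPM in the SST libraries. The groups overlapped: SST replicate 4 lay above PKCd replicates 1 to 3, and PKCd replicate 4 stood far above the other PKCd libraries. Mean Il10rb was 184.9 ± 131.2 TPM in the PKCd and 72.8 ± 72.9 TPM in the SST libraries (SD, n = 4 each).

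Il10rb lies between Ifnar2 and Ifnar1 on chromosome 16, with Ifngr2 beyond them, and all 4 genes encode chains of class II cytokine receptors. The other 3 are no members of the set and could be tested. Ifnar2 (91372783 to 91405589), a chain of the type I interferon receptor, had 184.2 ± 89.9 TPM in the PKCd and 171.6 ± 94.4 TPM in the SST libraries (SD, n = 4 each). Ifnar1 (91485032 to 91510523), its partner, had 56.3 ± 60.4 TPM in the PKCd and 32.5 ± 21.3 TPM in the SST libraries, and Ifngr2 (91547059 to 91564007), the partner of Ifngr1, had 45.6 ± 31.9 TPM in the PKCd and 25.5 ± 18.5 TPM in the SST libraries. Their log2 fold changes were 0.33 ± 0.63, 0.85 ± 0.63 and 0.66 ± 1.13 (SE), and the lowest adjusted p of edgeR among the 3 was 0.881.

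Il4ra (chromosome 7, 125552271 to 125579474), the chain that binds interleukin 4 in both kinds of its receptor, was the lowest of the 10 genes by mean level in PKCd libraries. It had 5.66, 19.8, 18.7 and 29.8 TPM there, against 0, 0.022, 0 and 0 TPM in the SST libraries. A single read, in SST replicate 2, stood in all 4 SST libraries, against 332, 719, 53 and 133 reads in PKCd libraries. The pooled read rate was 1369 times higher in PKCd libraries (95% exact interval 245.2 to 54105, counting error only). The ratio of mean CPM, which rests on that 1 read, was 3655. Il13ra1 (chromosome X, 36112108 to 36171262), which binds interleukin 13 and joins Il4ra in 1 kind of interleukin 4 receptor, showed no such separation. It had 48.2, 0.811, 81.4 and 84.9 TPM in the PKCd and 55.2, 18.3, 86.4 and 112.6 TPM in the SST libraries. The ranges overlapped almost wholly, with PKCd replicate 2 far below the other 7 libraries. The fitted log2 fold change of Il13ra1 was -0.54 ± 0.90 (SE), the only negative value of the 10, and it became 0.13 without SST replicate 1.

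Il2rg, the common gamma chain that completes the interleukin 4 and interleukin 21 receptors of blood cells, is no member of the set and had too few libraries with reads to be tested. It had 0, 0.095, 67.3 and 98.5 TPM in the PKCd and 0, 0, 0.75 and 145.5 TPM in the SST libraries. Its reads came almost wholly from 3 of the 4 libraries of 18 to 20 week mice. Il13ra2, a decoy receptor for interleukin 13, had no read in the PKCd libraries, and 1968 of its 1969 reads in SST libraries lay in SST replicate 1 (130.8 TPM).

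Il21r (chromosome 7, 125603252 to 125634397), the interleukin 21 receptor, neighbours Il4ra with 23777 bases between the genes. It had 31.5, 40, 14.6 and 4.1 TPM in the PKCd and 3.21, 0, 0.464 and 0.27 TPM in the SST libraries. PKCd replicate 4 and SST replicate 1 came within 1 TPM of each other, and the groups did not overlap. In the shallow libraries these levels rest on 20 and 9 reads (PKCd replicates 3 and 4) and on 1 read each (SST replicates 3 and 4), and SST replicates 1 and 2 held 87 and 0 reads. Il6ra (chromosome 3, 89869324 to 89913196), the ligand-binding chain for interleukin 6, had 31.8, 69.2, 5.5 and 22.7 TPM in the PKCd and 0.509, 0, 1.68 and 1.4 TPM in the SST libraries. All 4 PKCd libraries lay above all SST libraries, and the lowest of them rested on 10 reads. The SST levels rest on 18, 0, 5 and 7 reads. Its signalling partner Il6st (gp130), which is no member, had 49.3 ± 37.2 TPM in the PKCd and 38.6 ± 40.4 TPM in the SST libraries (SD, n = 4 each; log2 fold change 0.55 ± 0.88, SE; edgeR adjusted p 0.957).

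Ifngr1 (chromosome 10, 19591949 to 19610229), the ligand-binding chain of the interferon gamma receptor, had the highest mean of the 10 in both populations. It had 354.1, 212.1, 513.5 and 297.7 TPM in the PKCd libraries, against 59.5, 32.8, 68.4 and 244.5 TPM in the SST libraries. SST replicate 4 lay above PKCd replicate 2, and the other 3 SST libraries lay below every PKCd library. The mean was 344.4 ± 127 TPM in the PKCd and 101.3 ± 96.7 TPM in the SST libraries (SD, n = 4 each), with a fitted log2 fold change of 1.92 ± 0.61 (SE).

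Checkpoint genes split in their steadiness. Havcr2 (chromosome 11, 46454931 to 46481255), which encodes the inhibitory receptor TIM-3, had 74.2, 16.1, 240.6 and 97.7 TPM in the PKCd and 0, 0.044, 0 and 0.498 TPM in the SST libraries. The PKCd libraries spread over a wide range (coefficient of variation 89%), and the SST libraries held 0, 1, 0 and 2 reads. Its pooled read rate was 1152 times higher in PKCd libraries (95% exact interval 393.7 to 5587, counting error only). The ratio of mean CPM of Havcr2 was 772.7. Vsir (chromosome 10, 60346851 to 60430294), which encodes the inhibitory B7-family protein VISTA, was the steadiest of the 10, with a coefficient of variation of 12.8% over PKCd libraries. It had 189, 247, 214.5 and 191.1 TPM in the PKCd libraries, against 18.6, 13.8, 5.46 and 2.29 TPM in the SST libraries. In contrast to Havcr2, Vsir was read in every SST library (972, 589, 24 and 17 reads). The level sums 2 RefSeq transcripts of 4843 and 4846 bases, so how reads divide between the transcripts is uncertain. Cd86 (chromosome 16, 36568956 to 36666158), the costimulatory ligand of CD28 and CTLA-4, had 99.9, 10.9, 212.2 and 52 TPM in the PKCd and 20.4, 6.33, 0.904 and 0 TPM in the SST libraries. PKCd replicate 2 lay below SST replicate 1, and the other 3 PKCd libraries lay above all SST libraries. PKCd replicate 2 was thus the lowest PKCd library for Havcr2, Cd86, Il13ra1, Ifngr1 and Il10rb and the highest for Vsir, Il10ra, Il6ra and Il21r.

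In PKCd libraries the mean TPM ran, from high to low, in the order Ifngr1, Vsir, Il10rb, Havcr2, Cd86, Il13ra1, Il10ra, Il6ra, Il21r and Il4ra. No 2 neighbours in this order were separated, since the ranges of each pair overlapped over the 4 libraries. In SST libraries Ifngr1, Il10rb and Il13ra1 averaged 101.3 ± 96.7, 72.8 ± 72.9 and 68.1 ± 40.7 TPM (SD, n = 4 each), and the other 7 averaged 0.006 to 10 TPM.

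Sequences before the start of 4 of the genes are given because they set Havcr2 and Il4ra, next to absent in SST libraries, and Il6ra beside Il13ra1, which did not separate. RefSeq promoter sequences (GRCm38.p6) were found for 7 of the 10 genes, and the 250 bases before the start in that table were searched on both strands. For Il21r that start lies inside the gene as positioned above, so its window overlaps the gene. Havcr2 is chr11:46454681-46454930 (plus strand), Il6ra chr3:89913197-89913446 (minus), Il4ra chr7:125552021-125552270 (plus) and Il13ra1 chrX:36111858-36112107 (plus). Capitals mark GAGGAA or its reverse complement, the core bound by the myeloid factor PU.1 and by other ETS factors.
Havcr2: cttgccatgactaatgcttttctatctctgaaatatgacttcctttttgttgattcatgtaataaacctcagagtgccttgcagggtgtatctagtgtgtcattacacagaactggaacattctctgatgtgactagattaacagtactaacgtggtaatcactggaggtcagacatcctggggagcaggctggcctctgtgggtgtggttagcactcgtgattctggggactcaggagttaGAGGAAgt
Il6ra: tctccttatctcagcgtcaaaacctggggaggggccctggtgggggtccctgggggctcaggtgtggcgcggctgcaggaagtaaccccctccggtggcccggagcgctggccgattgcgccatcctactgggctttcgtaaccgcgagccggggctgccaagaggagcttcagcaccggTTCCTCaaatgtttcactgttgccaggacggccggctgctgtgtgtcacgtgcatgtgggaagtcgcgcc
Il4ra: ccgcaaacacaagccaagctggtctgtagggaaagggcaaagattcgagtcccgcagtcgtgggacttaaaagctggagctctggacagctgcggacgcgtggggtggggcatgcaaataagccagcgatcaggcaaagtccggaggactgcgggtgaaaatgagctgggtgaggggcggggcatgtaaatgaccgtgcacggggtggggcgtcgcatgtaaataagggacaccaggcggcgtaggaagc
Il13ra1: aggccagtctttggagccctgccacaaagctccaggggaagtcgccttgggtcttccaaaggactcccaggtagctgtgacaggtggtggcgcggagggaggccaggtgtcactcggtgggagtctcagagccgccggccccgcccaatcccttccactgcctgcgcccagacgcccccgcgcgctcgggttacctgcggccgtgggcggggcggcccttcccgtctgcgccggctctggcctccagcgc
GAGGAA lay in 2 of the 7 promoters (Havcr2 and Il6ra) and in 23.3% of all 32851 promoters of the same length. TTCNNNGAA, the element that STAT dimers bind, lay in 0 of the 7 and in 7.02% of all. The 2 motifs can overlap, and they did not in these windows. GC content was 44.8% in the Havcr2, 65.2% in the Il6ra, 59.6% in the Il4ra and 70.8% in the Il13ra1 window, against a median of 52.4% over all promoters. A match is a description of letters and not a binding site.

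Levels of the 10 genes were then set against the microglial markers of the same library, as TPM per 1000 TPM of the 12 markers. On this scale the genes fell into 3 patterns. As listed, Il4ra and Il10ra were higher in all PKCd libraries: Il10ra had 1.18 to 1.94 in PKCd and 0 to 0.477 in SST libraries, and Il4ra 0.149 to 0.977 in PKCd and 0 to 0.012 in SST libraries. Those separations hold at the depth of SST replicates 1 and 2 and are not resolved in the shallow SST libraries. There 3 reads, the number that a count of 0 allows, come to 0.481 and 0.819 per 1000 for Il4ra in replicates 3 and 4. Both lie inside its PKCd range. Il10ra had 2 reads in replicate 3 and 1 in replicate 4, and such counts allow more than 3. For Il10ra 3 reads come to 0.715 per 1000 in replicate 3 and 1.22 in replicate 4, the latter inside its PKCd range. Vsir had 4.96, 7.9, 4.28 and 6.27 per 1000 in PKCd libraries and 3.19, 7.35, 4.06 and 4.89 in SST libraries, so the groups overlapped throughout. Cd86, Il21r and Il6ra overlapped as well. Il13ra1 was lower in every PKCd library, with 0.026 to 2.79 per 1000 in PKCd and 9.46 to 239.8 in SST libraries. Ifngr1 reached 6.78 to 10.3 in PKCd and 10.2 to 520.9 in SST libraries, and the ranges met at SST replicate 1. Il10rb had 2.76 to 12.5 in PKCd libraries and 6.08, 0, 65.1 and 357.6 in SST libraries. As listed, without PKCd replicate 2 Havcr2 joined Il4ra and Il10ra, for a count of 3 in place of 2. The share over all genes was not computed on this scale, so nothing is read from these counts.

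Havcr2 had 0.515 to 4.81 per 1000 in PKCd libraries and 0, 0.023, 0 and 1.06 in SST libraries, and it overlapped through SST replicate 4 alone, where the value rests on 2 reads. The markers themselves differed in their ratio of mean PKCd to mean SST TPM, from 8.43 to 53.7. The ratio was 21 for Vsir, 13.6 for Cd86, 22.8 for Il21r and 36 for Il6ra, within that range. It was 3.4 for Ifngr1, 2.54 for Il10rb and 0.79 for Il13ra1, below it. Il10ra, Havcr2 and Il4ra are not set against that range, since their SST means rest on 4, 3 and 1 reads. Whether the other cells in the sort gave the reads of Ifngr1, Il10rb and Il13ra1 was not tested. Endothelial markers summed to 195, 2477, 1007 and 3146 TPM in PKCd replicates 1 to 4. Their sums in SST replicates 1 to 4 were 142.3, 0.682, 856.6 and 3036 TPM. Astrocyte markers summed to 1462, 200, 1619 and 1393 TPM in PKCd replicates 1 to 4. They summed to 885.4, 1243, 2764 and 2197 TPM in SST replicates 1 to 4. Oligodendrocyte markers summed to 18082, 11666, 22970 and 29394 TPM in PKCd replicates 1 to 4. The same markers had 9896, 59186, 25452 and 11338 TPM in SST replicates 1 to 4. Ifngr1, Il10rb and Il13ra1 were each highest among SST libraries in replicate 4. Among PKCd libraries all 3 were lowest in replicate 2, while Il10rb and Il13ra1 were highest in replicate 4 and Ifngr1 in replicate 3. Monocyte and neutrophil markers summed to 0.331 to 14.8 TPM in PKCd libraries. In SST replicates 1 to 4 they summed to 1.39, 0, 196.2 and 72.3 TPM. In SST replicate 4, Ccr2, a chemokine receptor of monocytes, had 67.3 TPM and Ly6c2 had 5.02 TPM. S100a8, S100a9, Mmp9 and Plac8 had 0 there.

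**Figure D2:**
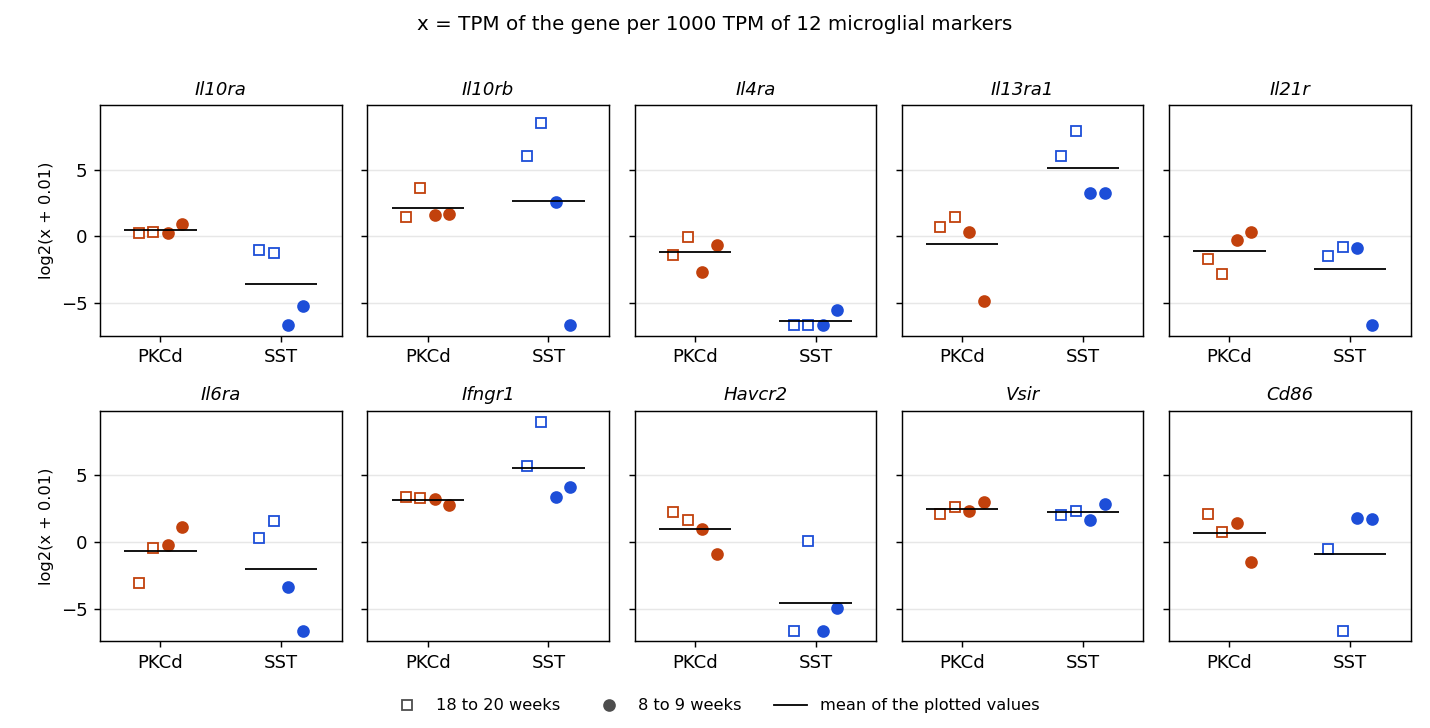
Each panel shows 1 gene as log2(x + 0.01), where x is its TPM per 1000 TPM of the 12 microglial markers in the same library, for PKCd (left, orange) and SST (right, blue) libraries; symbols are as in the plot of TPM by library. Vsir overlaps between the populations and Il13ra1 is lower in PKCd libraries; Il10ra and Il4ra lie higher in PKCd libraries as listed, which the depth of SST replicates 3 and 4 does not resolve.

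Genes whose profile over the 8 libraries was most like that of the 10 were ranked among 8075 genes with a mean of at least 10 TPM. The measure was the root mean square difference between centred log2(TPM + 1) profiles, and it gives no test. Dnase2a, a lysosomal nuclease, came first at 0.27, with 29.3 ± 5.91 TPM in the PKCd and 1.12 ± 0.80 TPM in the SST libraries (SD, n = 4 each). Lgmn, the lysosomal protease legumain, followed at 0.42, Entpd1, the ectonucleotidase CD39, at 0.51, Ecscr at 0.52 and Rac2, a GTPase of blood cells, at 0.56. Among the 10 genes the distance from their own mean profile was smallest for Il4ra, at 0.79, and largest for Il13ra1, at 2.68.

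Age did not enter the rule by which the genes were chosen. Havcr2 had higher and Vsir lower fitted values in the older mice, but no gene of the set passed the threshold. With edgeR, 0 of the 10 passed an adjusted p of 0.05 (0.0616% of all genes did). 2 of the 10 had an unadjusted p under 0.05 (8.36% of all genes), and DESeq2 called 0 of the 10 (4.94% of all genes). The log2 fold change of Havcr2, older minus younger, was 2.14 ± 0.93 (SE; edgeR adjusted p 0.565). It stood at 240.6 and 97.7 TPM in the older PKCd mice and at 74.2 and 16.1 TPM in the younger ones. Vsir had a log2 fold change of -1.37 ± 0.59 (SE; edgeR adjusted p 0.561). In SST libraries Vsir had 5.46 and 2.29 TPM in older and 18.6 and 13.8 TPM in younger mice, and in PKCd libraries it had 214.5 and 191.1 TPM in older and 189 and 247 TPM in younger mice. Microglial markers ran the same way in SST libraries, with 1347 and 469.4 TPM in older and 5835 and 1880 TPM in younger mice; their part in the Vsir difference was not tested. Il13ra1 was the 1 gene of the set whose 4 older libraries (81.4 to 112.6 TPM) all lay above the 4 younger ones (0.811 to 55.2 TPM), as 4.14% of all genes did. Its log2 fold change was 1.30 ± 0.91 (SE; edgeR adjusted p 0.731). The other 7 had log2 fold changes of -2.45 (Il21r) to 1.65 (Il10rb) and edgeR adjusted p-values of 0.728 to 0.99. Age class cannot be told apart from depth or from the run code that the names of the files carry. In the PKCd libraries alone, Cd86 and Il10ra had the opposite sign (1.10 and -0.34) to that in the fit of all 8 libraries (-1.72 and 1.13).

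**Figure D3:**
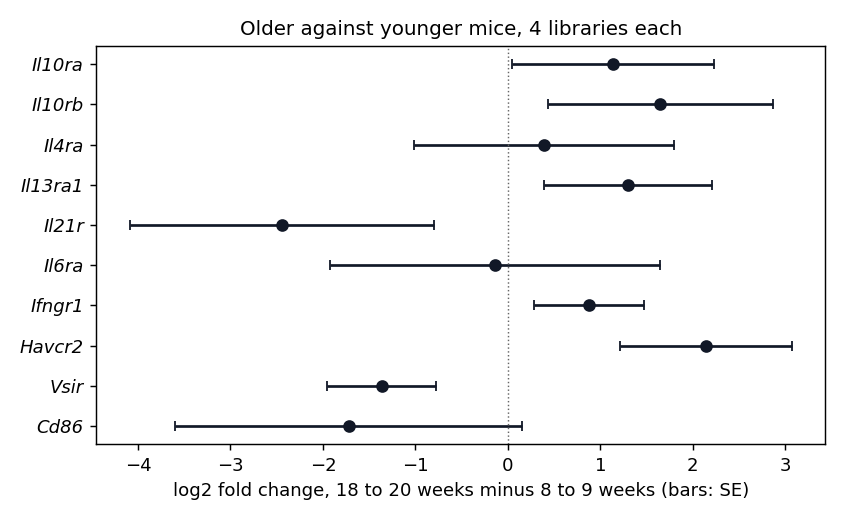
Points are fitted log2 fold changes of the 10 genes, 18 to 20 week minus 8 to 9 week mice, from edgeR with a term for population (4 libraries a class), and bars are SE. Havcr2 at 2.14 and Vsir at -1.37 lie farthest from 0 in relation to their error, and none of the 10 passed the threshold.

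Related genes were taken from 4 lists that hold no member of the set and could be tested in the comparison of the populations. The part of the microglial markers, higher in every PKCd library, in these differences was not tested. Of 42 other cytokine receptor chains, 21 had enough reads, and with edgeR 0 were higher (0.281% of all genes were) and 0 lower (0%). 4 had an unadjusted p under 0.05 (6.68% of all genes, either direction), all with positive values, and DESeq2 called 4 higher (3.21% of all genes) and 0 lower (0.809%). These 4 genes were the same under both readings: Il1rl2, the interleukin 36 receptor, Il17ra, the main chain of the interleukin 17 receptor, and Csf2rb and Csf2rb2, the near-identical beta chains of the GM-CSF and interleukin 3 receptors, whose reads are uncertain. They were named after their values were seen. Among the most abundant chains, Il11ra1, the interleukin 11 receptor, and Il1rap, a chain shared by interleukin 1 family receptors, had log2 fold changes of 0.02 and -0.69 (edgeR adjusted p 0.999 and 0.941). The list's median log2 fold change was 0.55.

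Of 35 other checkpoint and costimulatory genes, 10 could be tested; with edgeR 1 rose (Sirpa) and 0 fell. Sirpa (chromosome 2, 129591042 to 129632228), the inhibitory receptor for CD47, had 352, 485.8, 446.8 and 188.1 TPM in the PKCd and 22.8, 42.2, 66.1 and 29.3 TPM in the SST libraries. Every PKCd library lay above every SST library, and the log2 fold change was 3.21 ± 0.53 (SE; edgeR adjusted p 0.0318). The gene passed when PKCd replicate 4 was left out (edgeR adjusted p 0.0452) and missed the threshold when any other library was (0.0628 to 0.161, with 0.0728 for PKCd replicate 2). Its ligand Cd47 had 111.1 ± 55 TPM in the PKCd and 128.3 ± 48.9 TPM in the SST libraries (SD, n = 4 each; log2 fold change -0.14 ± 0.53, SE; edgeR adjusted p 0.988). DESeq2 called 4 higher (Sirpa, Lag3, Pvr and Lgals9) and 1 lower (Cd200), of which Lag3 and Pvr were named after their values were seen. Lgals9, a ligand of TIM-3, had 276.4 ± 159.2 TPM in the PKCd and 72.6 ± 52.4 TPM in the SST libraries (SD, n = 4 each; edgeR adjusted p 0.295). Cd200, a neuronal ligand that restrains microglia, had 42.5 ± 32.5 TPM in the PKCd and 190.1 ± 155 TPM in the SST libraries (SD, n = 4 each; edgeR adjusted p 0.384). Cd80, the other ligand of CD28, had 5.73 TPM in PKCd replicate 1 and 0 in the other PKCd libraries, and 6.22, 1.23, 0 and 8.35 TPM in the SST libraries. Cd274, the PD-1 ligand PD-L1, had 2.96 ± 1.72 TPM in the PKCd and 3.59 ± 1.80 TPM in the SST libraries (SD, n = 4 each; edgeR adjusted p 0.989). The list's median log2 fold change was 2.08.

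The ligands of the receptor chains gave few or no reads apart from Il21 and, in PKCd replicates 1 and 3, Il6. Other interleukins such as Il33 and Il18 were abundant. Of 29 interleukin and interferon genes, 9 could be tested and with edgeR 0 passed. 2 had an unadjusted p under 0.05, both with lower values in PKCd libraries (Il34 and Il18), and DESeq2 called Il34 lower. Il10, Il13 and Ifng had no read in any library, which allows up to 3 reads in each (0.164 to 3.11 CPM, by library). Il4 had 3 reads, all in SST replicate 4. Il6 had 109, 0, 21 and 0 reads in PKCd libraries and 0, 0, 0 and 5 in SST libraries. Il21 had 41.9 ± 44.7 TPM in the PKCd and 36 ± 23.3 TPM in the SST libraries (SD, n = 4 each; edgeR adjusted p 0.957). Il34, a neuronal ligand of the microglial receptor CSF1R, had 23.2, 5.5, 28 and 28.4 TPM in the PKCd and 47.5, 74.7, 352.2 and 61.4 TPM in the SST libraries. Every PKCd library lay below every SST library, with a log2 fold change of -2.41 ± 0.77 (SE; edgeR adjusted p 0.42). Il18 was likewise separated, with 128.5 ± 37.9 TPM in the PKCd and 315.9 ± 30.7 TPM in the SST libraries (SD, n = 4 each; edgeR adjusted p 0.649), and 3.04% of all genes lay lower in all PKCd libraries. Il33 and Il1a, alarmins of the interleukin 1 family, had log2 fold changes of -1.40 and 1.74 (edgeR adjusted p 0.766 and 0.944). The list's median log2 fold change was -0.62.

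Of 28 genes of JAK-STAT signalling, which carries the signal of the receptor chains above, 23 could be tested and with edgeR 0 passed. 4 had an unadjusted p under 0.05, all with positive values (Ptpn6, Jak3, Stat5b and Stat3), and DESeq2 called the first 3 of these higher; Stat5b was named after its values were seen. Jak3, the kinase that binds the common gamma chain, had 8.23, 24.4, 35.8 and 23.3 TPM in the PKCd and 0, 0.532, 1.82 and 1.08 TPM in the SST libraries (log2 fold change 5.37 ± 1.55, SE; edgeR adjusted p 0.304). Jak1, which most of the receptor chains use, had 68.3 ± 36.5 TPM in the PKCd and 62.9 ± 21 TPM in the SST libraries (SD, n = 4 each; edgeR adjusted p 0.999), and Ptpn6, the phosphatase SHP-1 of blood cells, had 188.2 ± 102.9 TPM in the PKCd and 11 ± 17.9 TPM in the SST libraries (edgeR adjusted p 0.302). Stat3, which acts below the interleukin 10 and interleukin 6 receptors, and Stat6, below the interleukin 4 receptor, had log2 fold changes of 1.66 and -0.22 (edgeR adjusted p 0.732 and 0.989). Those of Jak2, Tyk2, Irf9 and Pias1 were -1.28, 4.27, 0.62 and -0.03, with edgeR adjusted p-values of 0.759 or more. The list's median log2 fold change was 0.79.

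**Figure D4:**
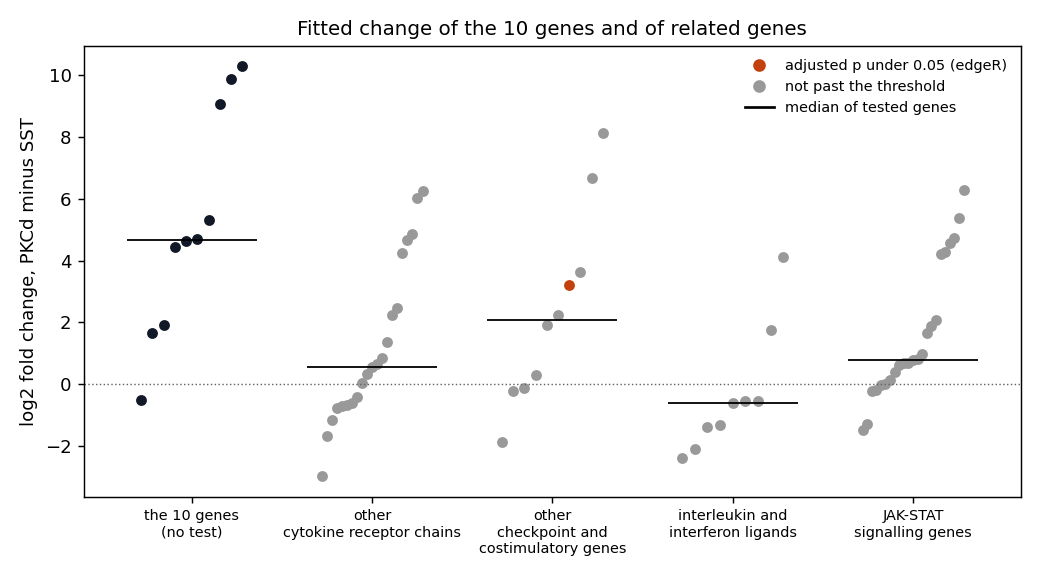
Fitted log2 fold changes (PKCd minus SST, edgeR) are drawn for the 10 genes (black, not tested) and for the tested genes of the 4 related lists (grey, or orange where the adjusted p was under 0.05), with a line at each median. The medians are 4.67 for the 10 genes and 0.55, 2.08, -0.62 and 0.79 for receptor chains, checkpoint genes, ligands and JAK-STAT genes. The 10 genes were chosen on this contrast, so nothing is read from their median beside the others. Sirpa is the orange point.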

How the data were processed

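RNA of sorted td-Tomato positive cells was made into sequencing libraries with the SMARTer smRNA-Seq kit, per the labels' protocols. The deposited tables hold, per RefSeq transcript, estimated counts and TPM from kallisto 0.43.0, per the file headers and the submitters' processing notes. Those notes also name BWA 0.7.12 and mm10, without the part each played. Estimated counts and TPM were summed per symbol (30404 targets, 21375 genes; 857 targets kept their accession as name). Counts were rounded and fitted with edgeR 4.0.16 (quasi-likelihood, TMM scaling, edgeR's expression filter) over all 8 libraries, with terms for population and age class, and p-values were adjusted by Benjamini-Hochberg over 11370 genes at a threshold of 0.05. DESeq2 1.42.0 and limma 3.58.1 on log2(TPM + 1) were alternatives. Scripts were tested on simulated data. The members and lists were chosen with earlier results of these data known. Related genes named in the text are those called, the 4 most abundant tested genes of each list, and partner chains and ligands of the members, with exceptions stated; 1 gene of that rule is not reported here. Each library is a separate mouse. Same-numbered libraries of the populations are different mice, so replicate numbers do not pair them.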

Additional observations from a re-analysis of the deposited data

Results flagged for a closer look

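Among 80 groups of 4 libraries, 11 held a library far from the other 3 of its group. A rate of about 1 in 20 would hold by chance for normally distributed values. These TPM values include zeros and come from libraries of unequal depth, so no excess is read from the count. 3 of the 11 concern the receptor and checkpoint genes: Il10rb at 380.5 TPM in PKCd replicate 4, Il21r at 3.21 TPM in SST replicate 1, and Ifngr1 at 244.5 TPM in SST replicate 4. The others concern related genes. In PKCd libraries they are Irf9 at 171.3 TPM in replicate 4 and Cd80 at 5.73 TPM in replicate 1. In SST libraries they are Il13ra2 at 130.8 TPM and Il1a at 134.3 TPM in replicate 1, Il34 at 352.2 TPM and Ptpn6 at 37.7 TPM in replicate 3, and Il2rg at 145.5 TPM and Il6 at 3.53 TPM in replicate 4.

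Il6ra differed between ages in opposite directions by population. Both older PKCd libraries (5.5 and 22.7 TPM) lay below both younger ones (31.8 and 69.2 TPM), and both older SST libraries (1.68 and 1.4 TPM) lay above both younger ones (0.509 and 0 TPM). The SST levels rest on 5 and 7 reads in the shallow older libraries and on 18 and 0 reads in the deep younger ones. In PKCd libraries the older mean minus the younger mean was -36.4 TPM. Whether the age difference itself differs between the populations was not tested.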

How the results depend on the processing

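The 32 genes that edgeR called in the comparison of the populations became 271 without a filter on low counts, 457 with DESeq2, 132 and 69 with limma at pseudocounts of 1 and 0.1 TPM, 58 after thinning to the shallowest library, and 0 within the older or within the younger mice. The other chains, 0 in the main result, became 1 without the filter (lower in PKCd) and 4 with DESeq2 (all higher). Checkpoint genes (1) became 2 without the filter, 5 with DESeq2, 2 with limma at 1 TPM, and 0 within either age class. Ligands (0) became 1 with DESeq2, and JAK-STAT genes (0) became 2 without the filter, 3 with DESeq2 and 1 with limma at 1 TPM. With 1 library left out the counts were 10 to 52 for all genes, 0 to 0 for the other chains, ligands and JAK-STAT genes, and 0 to 1 for checkpoint genes. The median log2 fold change of the 10 genes (4.67) was 3.83 with limma at 1 TPM, 5.83 in older and 3.90 in younger mice, and 4.23 to 5.43 with 1 library left out. The 6 genes without overlap were 6 to 8: 8 without PKCd replicate 2 or SST replicate 4, and 7 without SST replicate 1. The number higher in all PKCd libraries per marker TPM (2) was 2 to 3, an alternative chosen after seeing the data. The share over all genes was not computed on the marker scale or with a library left out, so nothing is read from either range. For age, 7 genes became 255 without the filter, 2 with the 10 CPM filter, 562 with DESeq2, 62 and 14 with limma, 0 in PKCd libraries alone, and 0 to 1 with 1 library left out; the 10 genes gave 0 to 0. The median age difference of all genes (-0.17) moved by more than 0.1 with RLE scaling (0.11), DESeq2 (0.11), no filter (0.15), thinning (0.20) and limma (0.24), without PKCd replicate 1 (0.10) and without SST replicate 1 (0.11); that between the populations moved by 0.10 in younger mice alone. For each count and reversal given here, the cause was not tested.

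With the replicate number as a block, 24 genes were called, Sirpa among them (adjusted p 0.0389), and no call among the genes named changed. The deviations of same-numbered libraries correlated at 0.061 to 0.174, and not every library correlated best with its own number. The numbers are shared by different mice, so the block pairs nothing.

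Some fitted differences that were not called changed sign. The main values, PKCd minus SST on the log2 scale, were Il11ra1 0.025, Jak1 -0.0095, Pias1 -0.03, Stat6 -0.22, Cd47 -0.14, Il21 -0.62, Il6st 0.55, Cd274 -0.23, Ifngr2 0.66, Irf9 0.62, Il13ra1 -0.54, Il1a 1.74, Il1rap -0.69. The sign turned under RLE scaling (Il11ra1 -0.005, Jak1 0.0047), the 10 CPM filter (Jak1 0.032, Pias1 0.0009), DESeq2 (Il11ra1 -0.0048, Jak1 0.0038), limma on log2(TPM + 1) (Il11ra1 -0.72, Stat6 0.17), limma on log2(TPM + 0.1) (Il11ra1 -1.51, Stat6 0.24), thinning (Jak1 0.12, Pias1 0.063), no age term (Il21 0.28, Jak1 0.074, Pias1 0.016), the replicate block (Il11ra1 -0.069, Jak1 0.0068, Stat6 0.36), younger mice alone (Cd274 0.045, Il11ra1 -0.18, Il1a -0.83, Il6st -1.02, Irf9 -0.28, Stat6 0.57), older mice alone (Cd47 0.13, Il1rap 0.031, Il21 0.75, Jak1 0.37, Pias1 0.39). With 1 library left out the ranges were Il11ra1 -1.28 to 0.84, Pias1 -0.23 to 0.13, Cd47 -0.62 to 0.076, Il21 -1.10 to 0.17, Jak1 -0.23 to 0.26, Il6st -0.17 to 1.21, Stat6 -0.60 to 1.16, Cd274 -0.85 to 0.25, Ifngr2 -0.15 to 1.80, Irf9 -0.32 to 1.11, Il13ra1 -1.63 to 0.13. For age, the main values were Il6ra -0.14, Il4ra 0.39, Il10ra 1.13, Cd86 -1.72. The sign turned under RLE scaling (Il6ra 0.0006), DESeq2 (Il6ra 0.021), limma on log2(TPM + 0.1) (Il6ra 0.33), PKCd libraries alone (Il10ra -0.34, Cd86 1.10), no population term (Il10ra -0.33, Cd86 0.75). With 1 library left out the ranges were Il4ra -0.25 to 1.14, Il6ra -1.10 to 0.79. Il21r had no value under the 10 CPM filter, after thinning or within older mice, and Il6ra had none after thinning. The SST values of Havcr2, Il4ra and Il10ra rest on 1 to 4 reads over the 4 libraries. Depth limits these genes in SST replicates 3 and 4. The deep SST replicates 1 and 2 held 0 and 1 reads of each.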
